A study of Mus musculus with 77 samples.

Results

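Genes for making and disposing of cholesterol and fatty acids were followed in mouse macrophages and lungs that differed in genotype and oxygen exposure. The 35 genes were listed by symbol, without a rule on their values, and all of them were found in each of the 4 expression tables, which hold 24940 genes each. Cells make cholesterol from acetyl units by way of mevalonate, squalene and lanosterol. When sterols in the endoplasmic reticulum run low, the transcription factor SREBP-2, encoded by Srebf2, is released and raises these enzymes and the uptake of lipoproteins, while SREBP-1, encoded by Srebf1, acts more on fatty acid genes. When oxysterols accumulate, the liver X receptors (LXR) raise cholesterol export and limit lipoprotein uptake. Macrophages depend on this balance because they take up the lipids of other cells, and in lung the same enzymes serve the alveolar type 2 cells, which make the lipids of surfactant. By role, 6 of the genes act in the mevalonate pathway, 11 between squalene and cholesterol, 3 regulate synthesis, 9 make, desaturate or elongate fatty acids, and 6 carry, export, store or sense sterols.

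The groups were a Trem2 knockout strain (KO) and the DBA strain, both from Jackson Laboratory, and C57BL/6J mice (B6). Trem2 encodes a lipid-sensing receptor of myeloid cells, and the labels do not name the deleted part of the gene. Bone-marrow-derived macrophages (BMDM), cultured from marrow precursors, spent 24 h in hyperoxia or in room air, with 2 libraries in each of the 6 groups. Column names of both atmospheres hold the mark invitro95, and the sample labels used here give no oxygen percentage for BMDM. For lung, newborn mice breathed 75% oxygen until postnatal day 14, starting no later than 24 h after birth, or breathed room air, and whole lungs were taken. RNA was sequenced from 4 hyperoxic and 4 room-air KO lungs, from 4 and 4 DBA lungs, from 3 and 4 B6 lungs, and from a separate set 2 of 3 hyperoxic and 2 room-air B6 lungs. Chromatin immunoprecipitation of p53 gave 4 BMDM and 6 lung peak lists. Nothing in the labels says whether the libraries of a group came from separate animals or cultures, so the p-values measure the spread between libraries, which may be technical.

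Values are TPM, that is, reads scaled for the length of the transcript and the size of the library, so levels of different genes can be set side by side. Fold changes (log2FC) are differences of log2(TPM + 1), which understates the change of low genes, and each is given with its standard error after ± and a limma p-value adjusted over all genes tested. A gene was called higher or lower at an adjusted p below 0.05. Estimated depth was 14.6 to 47.0 M (mega) reads in BMDM, 12.6 to 41.1 M in the lung tables of the first experiment and 7.08 to 8.04 M in set 2. Trem2 stood at 236 and 239 TPM in room-air KO BMDM, 1096 and 1030.3 TPM in DBA BMDM and 948 and 962 TPM in B6 BMDM, so transcript was still counted in the knockout. The date code in the column names is 20230116 for all KO and DBA BMDM libraries and 20240201 for all 4 B6 BMDM libraries. Differences of KO or DBA from B6 in BMDM therefore cannot be told apart from the date code, whereas KO and DBA share 1 code. In each B6 BMDM group 1 library carries the mark MF and 1 the mark F, and all others carry MF. The 6 macrophage markers were all detected, while the 7 adipocyte markers summed to at most 0.269 TPM in any BMDM library. All 5 fibroblast markers that could be tested (of 6) were called higher in KO and in DBA than in B6 BMDM, with sums in room air of 87.9 to 110.4 TPM in KO, 78.0 to 91.0 TPM in DBA and 0.459 to 0.682 TPM in B6. The 8 proliferation markers summed to 106 to 117 TPM in room-air KO, 172 to 178 TPM in DBA and 344 to 389.5 TPM in B6. The part of these in the results below was not tested.

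Promoter sequences from RefSeq (build GRCm38.p6, 250 bases before to 50 bases after the start site) were found for 27 of the 35 genes and searched on both strands for TCACNCC, the core of the sterol response element that SREBP proteins bind. It was present in 4 of the 27 windows (14.8%) and in 15.7% of all 18104 windows. The 4 windows with a match are shown, those of Hmgcs1, Msmo1, Srebf2 (the SREBP-2 gene) and Nr1h3 (the LXR-alpha gene). They are written 5′ to 3′ with the core in capitals and lie at chr13:119690101-119690400 (plus strand, 2 cores), chr8:64733529-64733828 (minus strand), chr15:82147019-82147318 (plus strand) and chr2:91194986-91195285 (minus strand, with the core on the opposite strand).
Hmgcs1: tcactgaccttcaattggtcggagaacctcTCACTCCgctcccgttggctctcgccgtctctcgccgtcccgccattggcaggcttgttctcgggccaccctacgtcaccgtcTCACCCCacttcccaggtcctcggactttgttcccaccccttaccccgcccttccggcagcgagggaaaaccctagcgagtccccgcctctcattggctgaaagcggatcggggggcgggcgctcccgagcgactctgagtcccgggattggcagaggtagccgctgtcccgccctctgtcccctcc
Msmo1: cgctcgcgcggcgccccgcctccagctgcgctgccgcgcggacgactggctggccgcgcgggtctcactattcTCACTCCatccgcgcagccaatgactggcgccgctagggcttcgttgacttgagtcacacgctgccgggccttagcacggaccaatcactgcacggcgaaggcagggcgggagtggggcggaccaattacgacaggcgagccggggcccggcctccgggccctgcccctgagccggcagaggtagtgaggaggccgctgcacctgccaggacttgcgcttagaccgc
Srebf2: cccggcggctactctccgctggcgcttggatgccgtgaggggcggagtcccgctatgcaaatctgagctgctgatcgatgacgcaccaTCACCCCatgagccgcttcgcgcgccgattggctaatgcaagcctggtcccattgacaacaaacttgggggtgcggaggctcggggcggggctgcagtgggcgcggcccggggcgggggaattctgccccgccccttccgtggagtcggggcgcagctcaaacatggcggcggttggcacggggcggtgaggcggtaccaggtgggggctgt
Nr1h3: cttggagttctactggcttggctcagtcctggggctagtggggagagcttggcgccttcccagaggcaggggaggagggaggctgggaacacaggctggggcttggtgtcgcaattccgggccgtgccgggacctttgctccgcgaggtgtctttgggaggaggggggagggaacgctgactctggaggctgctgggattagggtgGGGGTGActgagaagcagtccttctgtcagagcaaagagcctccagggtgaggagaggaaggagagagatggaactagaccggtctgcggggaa
The E-box CACGTG was in 5 of the 27 windows (18.5%, against 8.16% of all windows) and the NF-Y box CCAAT in 19 (70.4%, against 38.9%). A match describes the letters only. Fdps, Fdft1, Sqle, Scd1, Scd2, Fads1, Stard4 and Abcg1 were not analysed here for promoters.

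In macrophages the sterol pathway stood lower in KO and in DBA than in B6, while the exporter Abca1 and the ubiquitin ligase Mylip stood higher. In room air 24 of the 35 genes were called lower and 2 higher in KO, where 15.3% and 33.9% of 12320 genes were called in these directions (49.1% in either). In DBA 28 were called lower and 4 higher, beside 16.2% and 40.7% of all genes (56.8% in either). The median log2FC of the 35 was -0.66 in KO and -0.82 in DBA, beside 0.14 and 0.19 for all genes tested. Under hyperoxia 27 were lower and 3 higher in KO (12.2% and 38.1% of all genes, 50.3% in either), and 28 were lower and 4 higher in DBA (14% and 46.6%, 60.6% in either). The medians there were -0.88 in KO and -0.86 in DBA, beside 0.19 and 0.26 for all genes. The comparisons of KO and of DBA use the same B6 libraries and are not independent of each other.

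**Figure D1:**
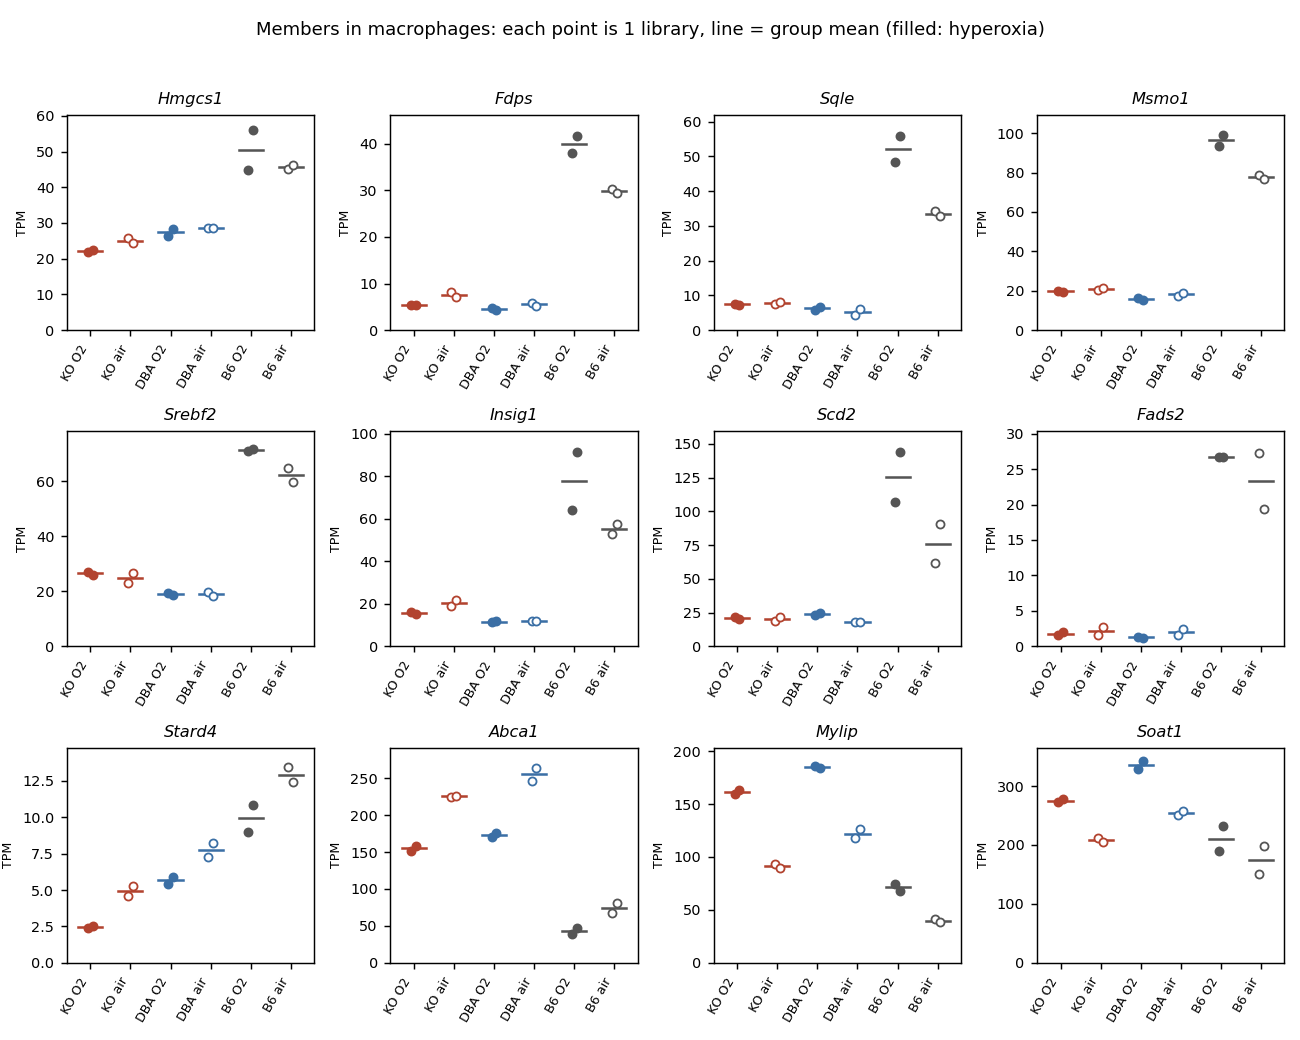
TPM (vertical axis, from 0) of 12 genes in each BMDM library, with the group mean as a line. Filled points are hyperoxia (O2) and open points room air. Fdps, Sqle, Msmo1, Srebf2, Insig1, Scd2 and Fads2 are lower in every KO and DBA library than in any B6 library, and Abca1 and Mylip are higher than in B6 at the same oxygen level.

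All 6 mevalonate genes were called lower in KO in both atmospheres, and 5 in room air and 6 in hyperoxia in DBA. Hmgcs1, an early synthase of the pathway, had 25.7 and 24.3 TPM in KO, 28.7 and 28.5 TPM in DBA and 45.1 and 46.2 TPM in B6 in room air. No KO or DBA library reached a B6 library, and the log2FC was -0.85 ± 0.09 in KO (adjusted p = 7.26e-05) and -0.66 ± 0.09 in DBA (adjusted p = 0.000255). Fdps makes farnesyl diphosphate, the branch point to sterols and prenylated proteins. It had 8.10 and 7.16 TPM in KO, 5.86 and 5.26 TPM in DBA and 30.4 and 29.6 TPM in B6 in room air, with log2FC of -1.84 ± 0.09 in KO and -2.24 ± 0.09 in DBA (adjusted p = 4.54e-07 and 6.99e-08). Under hyperoxia Fdps had 5.35 and 5.31 TPM in KO, 4.65 and 4.36 TPM in DBA and 38.1 and 41.8 TPM in B6, 7.49-fold lower in KO and 8.86-fold lower in DBA by group means. Mvd, the decarboxylase that yields isopentenyl diphosphate, followed the same order of groups. It had 7.44 and 6.25 TPM in KO, 3.87 and 4.20 TPM in DBA and 15.6 and 17.2 TPM in B6 in room air (log2FC -1.15 ± 0.14 and -1.79 ± 0.14). Idi1, the isomerase of the next step, was scarce, at 0.753 and 0.899 TPM in KO, 0.562 and 0.687 TPM in DBA and 3.91 and 3.76 TPM in B6. Its log2FC was -1.41 ± 0.15 in KO and -1.57 ± 0.15 in DBA. Of the 2 kinases, Pmvk was lower in both (-0.49 in KO and -0.84 in DBA), and Mvk was called in KO (-0.39) and not in DBA (-0.17) in room air.

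Between squalene and cholesterol 8 of 11 genes were called lower in KO and 10 in DBA in room air, and 9 and 10 in hyperoxia, with 0 called higher in each by limma. Sqle, the squalene epoxidase, is an oxygen-using and rate-limiting step. It had 7.62 and 8.17 TPM in KO, 4.36 and 6.08 TPM in DBA and 34.2 and 32.8 TPM in B6 in room air (log2FC -1.96 ± 0.13 and -2.49 ± 0.13, adjusted p = 2.8e-06 and 4.12e-07). Under hyperoxia Sqle had 7.59 and 7.36 TPM in KO, 5.87 and 6.68 TPM in DBA and 48.5 and 55.8 TPM in B6. Every B6 library lay above every KO and DBA library. Msmo1, which removes methyl groups from lanosterol derivatives, had 20.1 and 21.2 TPM in KO, 17.3 and 19.1 TPM in DBA and 79.0 and 76.8 TPM in B6 in room air (log2FC -1.86 ± 0.07 and -2.04 ± 0.07, adjusted p = 1.1e-07 and 2.33e-08). Cyp51, the lanosterol demethylase, had 6.11 and 6.95 TPM in KO, 4.82 and 5.95 TPM in DBA and 26.0 and 27.8 TPM in B6 (log2FC -1.89 and -2.13). Sc5d, a late desaturase, had 13.8 and 14.9 TPM in KO, 8.65 and 8.30 TPM in DBA and 33.6 and 35.01 TPM in B6 (log2FC -1.20 and -1.90). In these 3 genes, too, B6 stood clear of the other strains. Hsd17b7 (-0.78 in KO and -0.95 in DBA), Lss (-0.70 and -0.95), Nsdhl (-0.66 and -0.61) and Tm7sf2 (-0.63 and -0.86) were lower in room air as well. Ebp, the sterol isomerase, was called in none of the 4 comparisons with B6, at 33.7 and 30.4 TPM in KO, 37.3 and 32.9 TPM in DBA and 35.7 and 35.5 TPM in B6 in room air.

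Fdft1, the squalene synthase, stood apart from its neighbours in the pathway. It had 139 and 149.9 TPM in KO, 98.8 and 102 TPM in DBA and 132 and 139 TPM in B6 in room air, and was called in DBA (-0.43 ± 0.06, adjusted p = 0.000295) and not in KO (0.09). Its annotated span shares 774 bases with Ctsb, the cathepsin B gene. No label or header states whether strand was used in counting, so reads of overlapping genes cannot be told apart. In all, 15 of the 35 genes overlap another annotated gene.

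The 3 regulators were lower in both strains and both atmospheres. Srebf2 had 23.1 and 26.5 TPM in KO, 19.7 and 18.5 TPM in DBA and 64.7 and 59.8 TPM in B6 in room air (log2FC -1.29 ± 0.07 and -1.65 ± 0.07, adjusted p = 1.43e-06 and 1.73e-07). Insig1, which holds SREBP in the endoplasmic reticulum and is itself an SREBP target, had 19.0 and 22.0 TPM in KO, 11.9 and 12.2 TPM in DBA and 52.9 and 57.7 TPM in B6 (log2FC -1.39 ± 0.14 and -2.11 ± 0.14). Neither gene had a KO or DBA library near the B6 level. Srebf1 had 19.7 and 19.2 TPM in KO, 23.9 and 25.1 TPM in DBA and 31.1 and 31.7 TPM in B6, a smaller difference (log2FC -0.66 ± 0.06 and -0.35 ± 0.06).

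Among the 9 fatty acid genes 6 were lower in KO and 9 in DBA in room air, and 8 in each under hyperoxia, led by the desaturases. Fads2, the delta-6 desaturase of polyunsaturated fatty acids, had 1.67 and 2.74 TPM in KO, 1.61 and 2.52 TPM in DBA and 27.2 and 19.4 TPM in B6 in room air, 10.6-fold lower in KO and 11.3-fold lower in DBA by group means. Its log2FC was the largest in size of the 35 genes in all 4 comparisons with B6, at -2.92 ± 0.21 in KO and -2.98 ± 0.21 in DBA in room air (adjusted p = 4.85e-06 and 2.93e-06). Scd1 and Scd2 are stearoyl-CoA desaturases, which make monounsaturated fatty acids. Scd2 had 19.2 and 21.9 TPM in KO, 18.3 and 18.2 TPM in DBA and 61.6 and 90.5 TPM in B6 in room air (log2FC -1.81 ± 0.17 and -1.97 ± 0.17). Scd1 had 3.88 and 3.92 TPM in KO, 2.15 and 1.78 TPM in DBA and 11.9 and 18.7 TPM in B6 (log2FC -1.70 ± 0.26 and -2.43 ± 0.26). The 2 B6 libraries lay apart from each other in both genes and still above all others. Fasn, the fatty acid synthase, had 9.50 and 10.2 TPM in KO, 8.83 and 7.60 TPM in DBA and 15.0 and 15.4 TPM in B6 (log2FC -0.58 and -0.82). Fads1 (-0.55 in KO and -0.63 in DBA) and Elovl5 (-0.60 and -0.29) were lower in both, while Acaca (-0.85), Elovl6 (-0.60) and Acly (-0.14) were called in DBA and not in KO in room air.

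The genes of export and storage held the members that stood higher. Abca1, which passes cholesterol to apolipoproteins, had 225 and 226 TPM in KO, 246 and 264 TPM in DBA and 68.0 and 80.8 TPM in B6 in room air (log2FC 1.59 ± 0.10 and 1.77 ± 0.10, adjusted p = 2.45e-06 and 8.09e-07). Mylip, an LXR-induced ubiquitin ligase, had 93.5 and 89.1 TPM in KO, 117 and 127 TPM in DBA and 41.6 and 38.2 TPM in B6 (log2FC 1.18 ± 0.07 and 1.59 ± 0.07). Both were higher in every KO and DBA library than in the room-air B6 libraries. Abcg1, which exports cholesterol to high-density lipoprotein, had 139 and 132 TPM in KO, 231 and 229 TPM in DBA and 139 and 172 TPM in B6, and was called in DBA (0.57 ± 0.10) and not in KO (-0.19). Soat1, which esterifies cholesterol for storage, had 212 and 205 TPM in KO, 250.3 and 258 TPM in DBA and 151 and 198 TPM in B6, and was likewise called in DBA (0.55 ± 0.12, adjusted p = 0.00335). Stard4, a sterol carrier, was lower in both strains, at 4.57 and 5.26 TPM in KO, 7.28 and 8.20 TPM in DBA and 13.5 and 12.4 TPM in B6 (log2FC -1.24 ± 0.11 and -0.67 ± 0.11). Nr1h3, which encodes LXR-alpha, was called in none of the 4 comparisons with B6, whose room-air libraries had 15.8 and 29.2 TPM.

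Further genes of these pathways were read from 3 lists that hold none of the 35, beside 33.9% of all genes higher and 15.3% lower in KO than in B6 in room air, and 40.7% and 16.2% in DBA. Of 14 other genes of sterol synthesis, uptake and trafficking that could be tested (of 15), 6 were higher and 5 lower in KO, and 6 higher and 5 lower in DBA, so that the share called higher was near that of all genes. Of 8 other LXR pathway genes 6 were higher and 1 lower in KO, and 6 and 1 in DBA. Apoe, the apolipoprotein that macrophages secrete, averaged 7994 TPM in KO, 11494 TPM in DBA and 3030.0 TPM in B6 (log2FC 1.43 and 1.95). Mertk, a receptor for dying cells, averaged 99.6 TPM in KO, 65.6 TPM in DBA and 28.5 TPM in B6 (log2FC 1.78 and 1.18). Of 10 other fatty acid and glycerolipid genes tested (of 15), 3 were higher and 5 lower in KO, and 1 and 5 in DBA.

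KO and DBA BMDM carry the same date code. In room air 8 of the 35 genes were higher in KO than in DBA and 5 lower, beside 10.1% and 15.1% of all genes (25.1% in either), with a median of 0.17 against -0.06 for all genes. Sc5d had 13.8 and 14.9 TPM in KO, against 8.65 and 8.30 TPM in DBA (log2FC 0.70 ± 0.10, adjusted p = 0.000995). Insig1 had 19.0 and 22.0 TPM in KO, against 11.9 and 12.2 TPM in DBA (0.72 ± 0.14, adjusted p = 0.00471). Both were higher in each KO library than in each DBA library. Mvd (0.64), Acaca (0.59), Sqle (0.53), Fdft1 (0.52), Fdps (0.40) and Srebf2 (0.36) were higher in KO too. In the other direction, Abcg1 had 139 and 132 TPM in KO, against 231 and 229 TPM in DBA (-0.76 ± 0.10, adjusted p = 0.0005). Nr1h3 had 16.3 and 13.3 TPM in KO, against 27.2 and 23.1 TPM in DBA (-0.73 ± 0.23, adjusted p = 0.0448), a call that was lost with quantile normalization or without the filter on low values. Stard4 (-0.56), Mylip (-0.42) and Srebf1 (-0.32) were lower in KO as well. The count of 13 was 8 without KO room-air library 1.

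Under hyperoxia 5 were higher in KO than in DBA and 2 lower, beside 7.82% and 13.9% of all genes (21.7% in either). Sc5d (0.61), Acaca (0.53), Srebf2 (0.46), Msmo1 (0.31) and Fdft1 (0.27) were higher. Stard4 had 2.37 and 2.54 TPM in KO, against 5.44 and 5.92 TPM in DBA (-0.95 ± 0.11, adjusted p = 0.000271). Abcg1 had 128 and 128 TPM in KO, against 219.9 and 219 TPM in DBA (-0.77 ± 0.10). The libraries of the 2 strains did not overlap in either gene. The count of 7 was 4 without DBA hyperoxia library 2 or either KO hyperoxia library, and 14 when only these 2 groups were fitted, of which 6 were higher and 8 lower in KO.

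**Figure D2:**
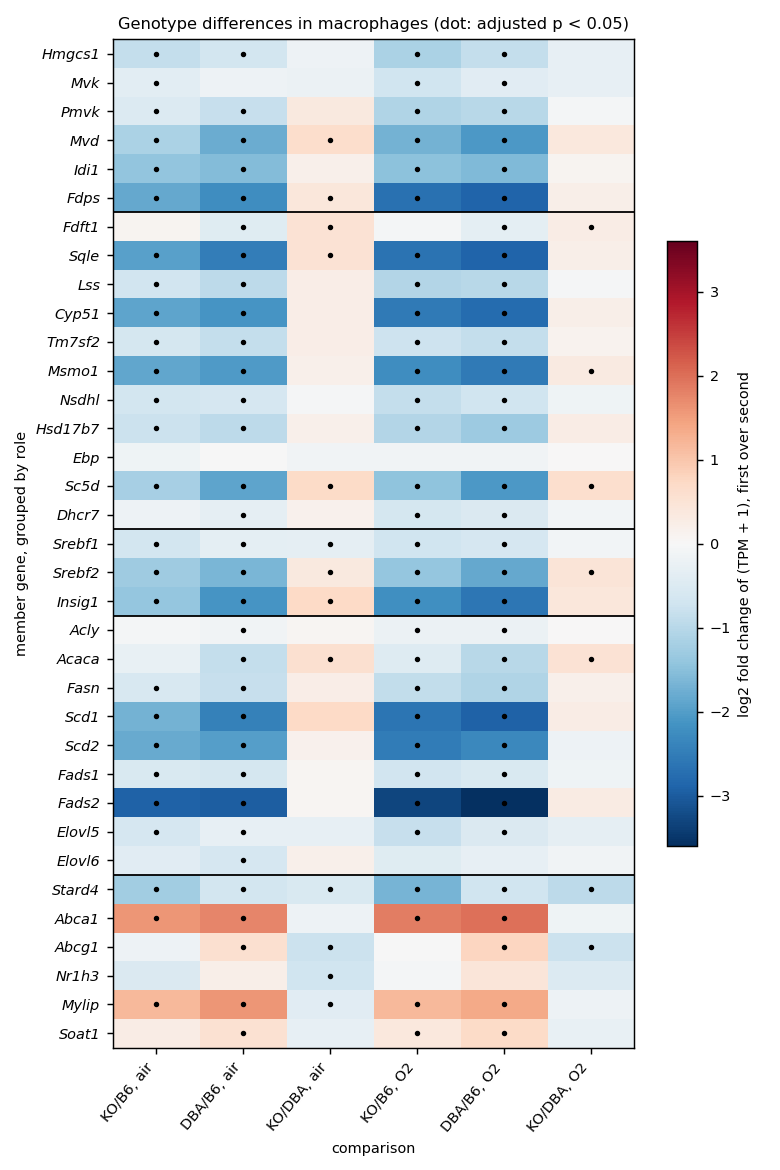
Log2 fold change of (TPM + 1) of the 35 genes (rows, by role) in the 6 BMDM genotype comparisons (columns, the strain named first over the other), with dots for adjusted p below 0.05. The columns against B6 reach -3.60 (Fads2) and 1.99 (Abca1) in hyperoxic DBA, and the dotted cells of KO over DBA lie between -0.95 (Stard4) and 0.72 (Insig1).

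With oxygen, fewer of these genes, and fewer of all genes, were called in macrophages than between KO or DBA and B6. In KO 2 rose and 10 fell with hyperoxia (6.88% and 16.4% of all genes, 23.3% in either), in DBA 2 rose and 5 fell (5.73% and 13%, 18.8% in either), and in B6 7 rose and 5 fell (5.68% and 22.8%, 28.5% in either). With quantile normalization 2 rose and 3 fell in DBA, and 10 rose and 2 fell in B6, where the median of all genes was -0.13 before it. Mylip rose in all 3 genotypes. It had 159 and 163 TPM in hyperoxic KO, against 93.5 and 89.1 TPM in room air (log2FC 0.82 ± 0.07, adjusted p = 6.66e-05). The DBA libraries had 186 and 184 TPM in hyperoxia, against 117 and 127 TPM in room air (0.60 ± 0.07), and the B6 libraries 74.5 and 68.3 TPM, against 41.6 and 38.2 TPM (0.82 ± 0.07). Abca1, also an LXR target, fell in all 3, with 152 and 159 TPM in hyperoxic KO, against 225 and 226 TPM in room air (-0.54 ± 0.10), and with log2FC of -0.56 in DBA and -0.78 in B6. Stard4 fell in all 3 (-0.77 in KO, -0.39 in DBA and -0.36 in B6), though its calls in DBA and B6 were lost with quantile normalization. Soat1 rose in KO (0.40) and DBA (0.40).

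In B6 synthesis enzymes were called in both directions. Sqle had 48.5 and 55.8 TPM in hyperoxic B6 BMDM, against 34.2 and 32.8 TPM in room air (log2FC 0.62 ± 0.13, adjusted p = 0.00644). Scd2 had 107 and 144 TPM in hyperoxia, against 61.6 and 90.5 TPM in room air (0.73 ± 0.17, adjusted p = 0.0131). The hyperoxic libraries were higher in both genes. Cyp51 (0.47), Insig1 (0.46), Fdps (0.40) and Msmo1 (0.30) rose too. Fdft1 had 102 and 113 TPM in hyperoxic B6 BMDM, against 132 and 139 TPM in room air (-0.33 ± 0.06), and Elovl6 (-0.50) and Ebp (-0.31) also fell, though these last calls were lost with quantile normalization. In KO the synthesis genes called were all lower, Fdft1, Elovl6 and Ebp among them. Dhcr7, a terminal reductase of the pathway, had 9.49 and 9.14 TPM in hyperoxic KO, against 15.1 and 13.8 TPM in room air (-0.58 ± 0.13, adjusted p = 0.00945). Pmvk (-0.53), Elovl6 (-0.51), Fdft1 (-0.50), Fdps (-0.45), Ebp (-0.29), Fads1 (-0.26) and Acly (-0.20) also fell, and the calls of Pmvk, Ebp, Acly and Elovl6 were lost with quantile normalization. The counts rest on few libraries, and calls over all genes fell as well in each fit that follows. When only the 2 B6 groups were fitted, 0 of all 12320 genes were called, against 3515 with all groups. The 12 calls in KO were 5 to 7 without any 1 of the 4 KO libraries, the 7 in DBA were 3 without either hyperoxia library and 4 without room-air library 2, and the 12 in B6 were 7 without room-air library 1 and 0 when only the 2 B6 groups were fitted. In B6 the balance also turned on 1 library, with 2 higher and 6 lower without hyperoxia library 2 (marked F), and 11 higher and 2 lower without hyperoxia library 1.

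The difference between oxygen responses was tested for each gene. For KO minus B6, Fdps was the only one of the 35 called (-0.85 ± 0.12, adjusted p = 0.02; 1.45% of all genes were called): it had 5.35 and 5.31 TPM in hyperoxic KO, against 8.10 and 7.16 TPM in room-air KO, and 38.1 and 41.8 TPM in hyperoxic B6, against 30.4 and 29.6 TPM in room-air B6. For DBA minus B6, Fdps (-0.65 ± 0.12) and Msmo1 (-0.51 ± 0.10) were called (adjusted p = 0.0466 each; 0.974% of all genes). With a pseudocount of 0.1 TPM limma called 0 of the 35 for either difference, and 9 of all genes for each. The call for KO was also lost without B6 room-air library 1, B6 hyperoxia library 2, KO room-air library 1 or either KO hyperoxia library, and became 2 calls without B6 room-air library 2 or B6 hyperoxia library 1. The calls for DBA became 0 without any B6 or DBA library other than DBA room-air library 2, which left 1.

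**Figure D3:**
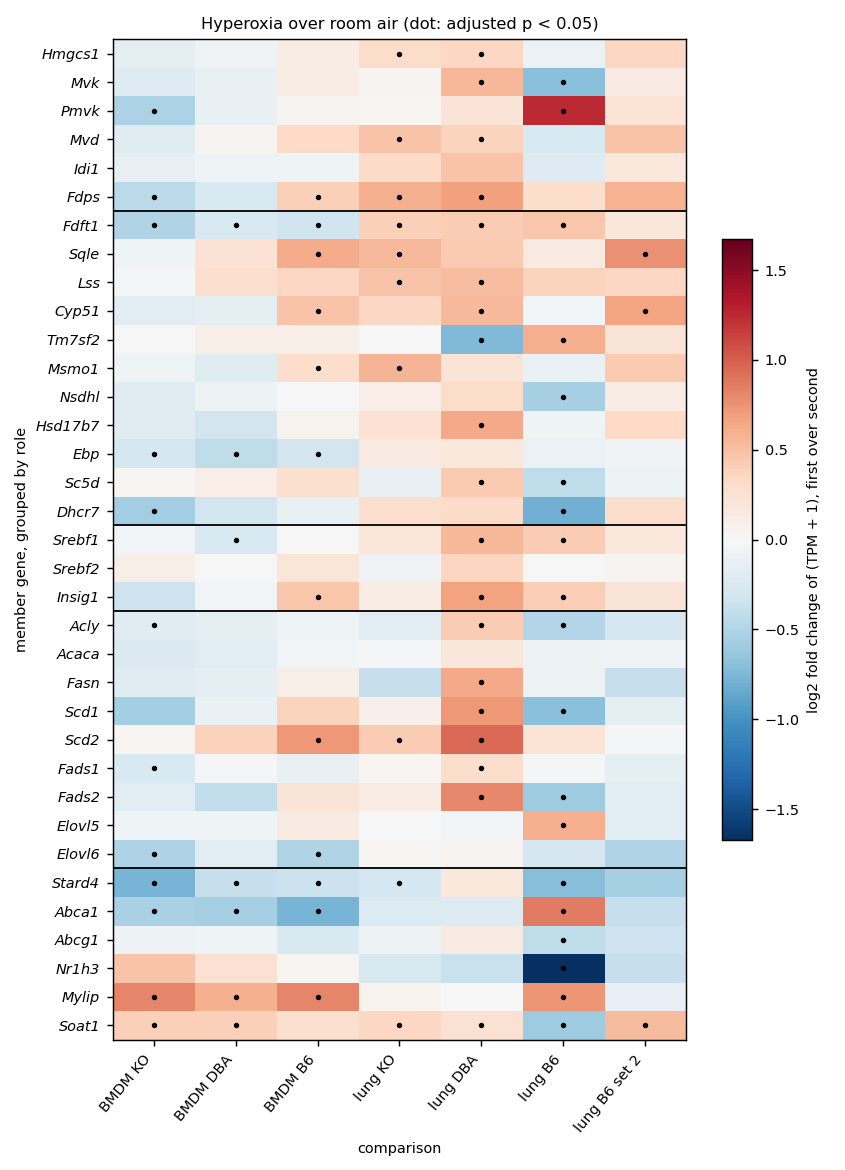
Log2 fold change of (TPM + 1) with hyperoxia over room air for the 35 genes (rows, by role) in BMDM and lung of each genotype and in set 2 of B6 lungs (columns), with dots for adjusted p below 0.05. Mylip rises and Abca1 falls in all 3 BMDM columns, and in the lung column of B6 the values of Nr1h3 (-1.67), Abca1 (0.87) and Soat1 (-0.59) stand apart from the other lung columns.

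In room-air lung limma called 0 of the 35 genes between KO and B6, beside 0.0769% of 15614 genes (0.0512% higher and 0.0256% lower), and 7 had an unadjusted p below 0.05, all lower in KO. Whole lung holds many cell types, and in bulk tissue fewer cells of a type and less RNA per cell cannot be told apart. Fdps had 20.0, 21.1, 18.4 and 17.5 TPM in KO lungs, against 17.7, 18.3, 21.5 and 18.7 TPM in B6 lungs. Sqle had 14.2, 15.4, 10.4 and 10.1 TPM in KO lungs, against 15.3, 12.6, 11.0 and 12.5 TPM in B6 lungs. The groups overlapped in both genes. Within the date code that 2 KO and 2 B6 room-air lungs share, limma called 0 of the 35 and 0 of all genes. Those KO lungs carry the mark M and those B6 lungs the mark F, so genotype and mark cannot be told apart there.

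In KO lungs 3 of the 6 mevalonate pathway genes and 4 of the 11 genes between squalene and cholesterol rose with hyperoxia. There 9 of the 35 rose and 1 fell, beside 10.6% and 9.11% of all genes (19.7% in either), with a median of 0.11 against 0.01. Fdps had 31.5, 27.5, 30.1 and 28.8 TPM in hyperoxic KO lungs, against 20.0, 21.1, 18.4 and 17.5 TPM in room air (log2FC 0.59 ± 0.11, adjusted p = 0.00183). Msmo1 had 29.4, 33.8, 31.4 and 25.4 TPM in hyperoxia, against 18.3, 22.8, 19.4 and 18.9 TPM in room air (0.57 ± 0.13, adjusted p = 0.00699). Scd2 had 284, 276, 279 and 281 TPM in hyperoxia, against 219, 177, 216 and 220.1 TPM in room air (0.43 ± 0.08, adjusted p = 0.0027). Hyperoxic and room-air libraries did not overlap in these 3 genes. Sqle (0.54), Mvd (0.48), Lss (0.48), Fdft1 (0.40), Soat1 (0.34) and Hmgcs1 (0.31) rose too, and Stard4 fell by 0.30 on the log2 scale. Alveolar type 2 markers summed to 24092 to 25647 TPM in hyperoxic and 25164 to 30666 TPM in room-air KO lungs. Proliferation markers, 7 of 8 called higher, summed to 192 to 227 TPM in hyperoxic and 130.5 to 174 TPM in room-air KO lungs, and macrophage markers, 1 of 6 called lower, to 2765 to 3509 and 4994 to 6448 TPM. Lymphocyte markers, 4 of 5 called lower, summed to 23.4 to 37.7 TPM in hyperoxia and 44.8 to 73.6 TPM in room air. None of the last 3 sums overlapped, and their part in the result was not tested. Within the date code 20230116 alone 9 were called, and the calls of Fdft1, Lss and Stard4 were lost. With date code as a term in the model, an alternative chosen after seeing the data, the calls of Mvd, Lss and Stard4 were lost.

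In DBA lungs 5 of the 11 genes between squalene and cholesterol and 6 of the 9 fatty acid genes rose, against 4 and 1 in KO lungs, and the difference between DBA and KO was not tested. With hyperoxia 18 rose and 1 fell, beside 18.6% and 12.4% of 15623 genes (31% in either), with a median of 0.36 against 0.05. Scd2 had 273, 268, 291 and 276 TPM in hyperoxic DBA lungs, against 142, 186, 126 and 124 TPM in room air (log2FC 0.95 ± 0.11, adjusted p = 6.16e-05). Fads2 had 28.3, 29.3, 36.4 and 29.3 TPM in hyperoxia, against 23.1, 22.5, 8.44 and 19.4 TPM in room air (0.80 ± 0.22, adjusted p = 0.0129). Both were higher in every hyperoxic library. In the sterol pathway Fdps (0.68), Hsd17b7 (0.63), Mvk (0.56), Cyp51 (0.54) and Lss (0.52) rose, and among the regulators Insig1 (0.67) and Srebf1 (0.56). Tm7sf2, a sterol reductase, was the gene that fell, with 6.78, 6.26, 5.92 and 5.49 TPM in hyperoxic DBA lungs, against 12.3, 9.93, 9.82 and 11.4 TPM in room air (-0.74 ± 0.13, adjusted p = 0.000607). Of 7 alveolar type 2 markers 6 were called higher with hyperoxia, and their sum was 13142 to 25842 TPM, against 7168 to 12024 TPM in room air. All 8 proliferation markers were called higher too, with sums of 155 to 192 TPM in hyperoxic and 62.7 to 91.1 TPM in room-air DBA lungs. Their part in the result was not tested. Of the 2 date codes of the DBA lungs, the later alone gave 16 calls and the earlier alone gave 5, which do not include Fdps, Fads2, Mvk, Cyp51, Lss or Hsd17b7. Of all genes 4448 were called within the later code and 1788 within the earlier, against 4841 over both. With date code as a term over all 8 DBA lungs 17 rose and 1 fell.

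The B6 lungs of the same experiment gave a mixed response. With hyperoxia 8 rose and 11 fell (16.6% and 26% of all genes, 42.7% in either), with a median of -0.09 against -0.07. Pmvk, the phosphomevalonate kinase, had 45.0, 89.5 and 25.4 TPM in hyperoxic B6 lungs, against 17.5, 19.3, 19.5 and 20.5 TPM in room air (log2FC 1.25 ± 0.27, adjusted p = 0.0015). The 3 hyperoxic libraries spread widely but lay above all 4 others. Nr1h3 had 8.36, 13.9 and 9.45 TPM in hyperoxia, against 27.9, 37.0, 37.3 and 38.8 TPM in room air (-1.67 ± 0.15, adjusted p = 7.76e-07), the largest change in size among the 35 there. Abca1 had 47.0, 52.1 and 42.7 TPM in hyperoxia, against 30.2, 25.7, 22.4 and 23.5 TPM in room air (0.87 ± 0.15, adjusted p = 0.000221). The exporter thus rose in the lungs where the gene of LXR-alpha fell. Dhcr7 had 4.98, 4.10 and 3.48 TPM in hyperoxia, against 7.57, 7.34, 8.57 and 8.57 TPM in room air (-0.80 ± 0.14). Mylip (0.74), Elovl5 (0.61), Tm7sf2 (0.61), Fdft1 (0.46), Srebf1 (0.42) and Insig1 (0.41) also rose. Stard4 (-0.71), Mvk (-0.70), Scd1 (-0.70), Soat1 (-0.59), Fads2 (-0.59), Nsdhl (-0.56), Acly (-0.49), Sc5d (-0.43) and Abcg1 (-0.43) fell. Macrophage markers, 5 of 6 called lower, summed to 1777 to 2035 TPM in hyperoxic and 2606 to 5154 TPM in room-air B6 lungs. Lymphocyte markers, 3 of 5 called lower, summed to 14.3 to 21.8 TPM in hyperoxia and 48.5 to 72.3 TPM in room air, and the part of both was not tested. Within the date code 20221118 alone 6 rose and 9 fell, and the calls of Tm7sf2, Sc5d, Srebf1 and Scd1 were lost.

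**Figure D4:**
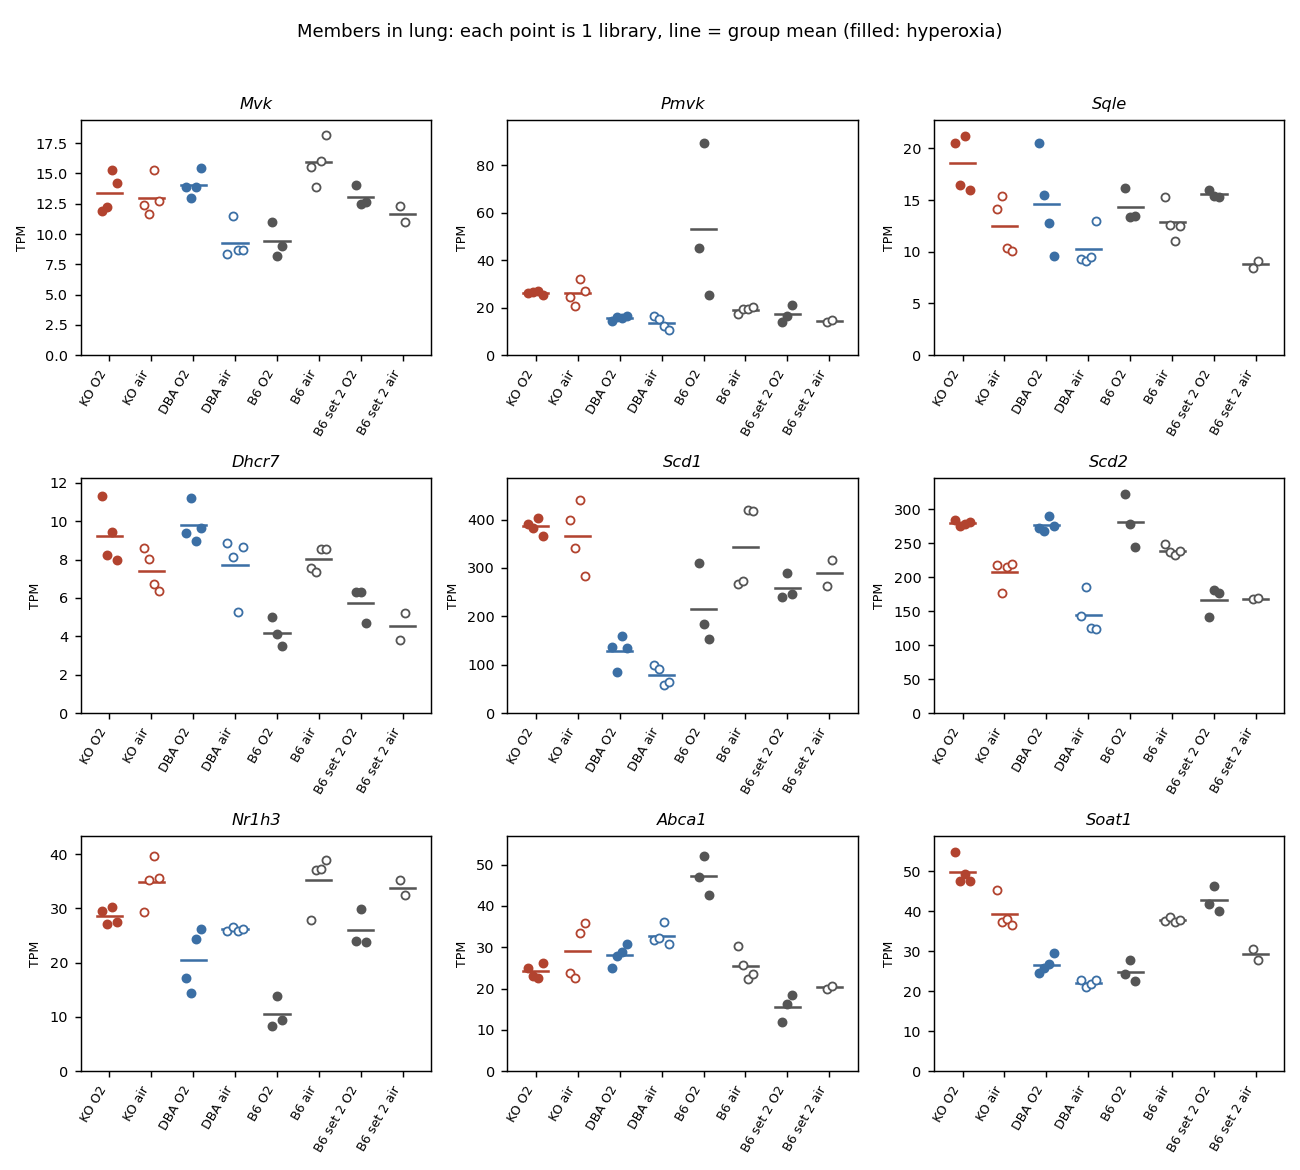
TPM (vertical axis, from 0) of 9 genes in each lung library, with the group mean as a line. Filled points are hyperoxia (O2) and open points room air, in KO, DBA, B6 and set 2 of B6. The 3 hyperoxic B6 libraries of the first experiment have lower Nr1h3 and higher Abca1 than every other library of their experiment, and the 8 DBA libraries have lower Scd1 than all KO libraries.

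Set 2 of B6 lungs was sequenced at lower depth and shares no library with the others. It had 3 of the 35 called, all higher with hyperoxia, beside 3.13% of 14636 genes higher and 1.81% lower (4.94% in either), with a median of 0.13 against 0.01. Sqle had 16.0, 15.4 and 15.3 TPM in hyperoxic lungs, against 8.43 and 9.11 TPM in room air (log2FC 0.76 ± 0.13, adjusted p = 0.0151). Cyp51 had 13.8, 12.6 and 12.4 TPM in hyperoxia, against 7.71 and 7.93 TPM in room air (0.66 ± 0.14, adjusted p = 0.0296). Soat1 had 41.8, 46.4 and 39.9 TPM in hyperoxia, against 30.6 and 27.8 TPM in room air (0.53 ± 0.12, adjusted p = 0.0464). All 3 were clear of their room-air libraries. Macrophage markers, 1 of 6 called lower and 1 higher, summed to 2901 to 3634 TPM in hyperoxic and 5259 to 5830.0 TPM in room-air lungs of set 2. Proliferation markers, 4 of 8 called higher, summed to 114 to 131 TPM in hyperoxia and 77.3 to 79.0 TPM in room air. Lymphocyte markers, 2 of 5 called lower, summed to 36.1 to 47.5 TPM in hyperoxia and 72.0 to 85.4 TPM in room air. The part of these in the result was not tested. Soat1 went the other way in the first B6 lungs, with 24.2, 27.7 and 22.5 TPM in hyperoxia, against 37.5, 38.5, 37.3 and 37.6 TPM in room air. The difference between the sets was not tested, because each set was fitted on its own. The 3 calls became 0 without either room-air library and 1 without hyperoxia library 1 or 3.

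Tested directly, the oxygen response of KO lungs differed from that of B6 lungs for 15 of the 35 (11 higher and 4 lower, beside 16.4% and 8.98% of all genes, 25.3% in either). The largest differences were those of Nr1h3 (1.39 ± 0.20, adjusted p = 0.000189), Pmvk (-1.22 ± 0.36), Abca1 (-1.10 ± 0.20), Dhcr7 (1.08 ± 0.19) and Soat1 (0.93 ± 0.12, adjusted p = 7.63e-05). Nr1h3 had 29.6, 27.1, 30.2 and 27.4 TPM in hyperoxic KO lungs, against 29.3, 35.2, 39.6 and 35.6 TPM in room-air KO lungs, and these overlapped. For DBA the response differed from that of B6 for 20 (15 higher and 5 lower, beside 20% and 9.2%, 29.2% in either), led by Scd1 (1.42 ± 0.37), Fads2 (1.39 ± 0.33), Tm7sf2 (-1.35 ± 0.18), Nr1h3 (1.29 ± 0.26) and Mvk (1.26 ± 0.17, adjusted p = 0.000211). Both tests use the same 7 B6 lungs, of which 3 carry the mark F, whereas all KO and DBA lungs carry the mark M. With male libraries alone the counts were 12 for KO and 20 for DBA, and the call of Pmvk was lost in both. The B6 lungs of set 2 were not in these tests. There Soat1 was called higher with hyperoxia, and Nr1h3, Abca1, Dhcr7 and Pmvk were not called. In set 2 Nr1h3 had 24.1, 29.8 and 23.9 TPM in hyperoxia, against 35.2 and 32.5 TPM in room air. Abca1 had 11.9, 16.2 and 18.5 TPM, against 19.9 and 20.6 TPM, and Dhcr7 6.29, 6.30 and 4.70 TPM, against 3.82 and 5.22 TPM.

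Within hyperoxic lung 14 genes were higher and 6 lower in KO than in B6 (22% and 15.2% of all genes, 37.2% in either). These groups share no date code, and their codes are linked only through room-air lungs. With date code as a term, chosen after seeing the data, 5 were higher and 3 lower. Of all 15614 genes 1442 were called in either direction with the term, against 5814 without it. Among the room-air B6 lungs of this link, code 20221118 goes with the mark M and 20221230 with F. Code and mark cannot be told apart there. Soat1 had 54.7, 47.4, 49.3 and 47.6 TPM in KO lungs, against 24.2, 27.7 and 22.5 TPM in B6 lungs (log2FC 0.98 ± 0.09, adjusted p = 1.7e-06). Nr1h3 had 29.6, 27.1, 30.2 and 27.4 TPM in KO lungs, against 8.36, 13.9 and 9.45 TPM in B6 lungs (1.38 ± 0.15). Dhcr7 had 11.3, 8.23, 9.41 and 7.98 TPM in KO lungs, against 4.98, 4.10 and 3.48 TPM in B6 lungs (0.98 ± 0.14, adjusted p = 6.42e-05). In these 3 genes every KO library exceeded each of these B6 libraries. The hyperoxic B6 lungs of set 2, which were fitted apart, had 24.1, 29.8 and 23.9 TPM of Nr1h3, and these overlapped KO. They had 41.8, 46.4 and 39.9 TPM of Soat1 and 6.29, 6.30 and 4.70 TPM of Dhcr7, all below KO. Scd1 (0.90), Fads2 (0.68) and Nsdhl (0.63) were higher in KO too, and Mylip (-0.95), Abca1 (-0.94), Tm7sf2 (-0.88) and Pmvk (-0.81) lower. With date code as a term the calls of Soat1, Dhcr7, Fads2, Nsdhl, Mylip and Abca1 held, and those of Nr1h3 (0.92, adjusted p = 0.0672), Scd1, Tm7sf2 and Pmvk were lost. All 6 macrophage markers were called higher in KO here, with sums of 2765 to 3509 TPM in KO and 1777 to 2035 TPM in B6. Proliferation markers, 3 of 8 called higher, summed to 192 to 227 TPM in KO and 167 to 174 TPM in B6, and the part of both was not tested.

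Of the 9 fatty acid genes 7 were lower and 1 higher in DBA than in B6 lungs in room air. In all 20 of the 35 were lower and 4 higher in DBA (34.8% and 21.5% of all genes, 56.4% in either), with a median of -0.48 against -0.12. Scd1 had 98.8, 91.1, 58.3 and 64.6 TPM in DBA lungs, against 267, 273, 419 and 417 TPM in B6 lungs (log2FC -2.12 ± 0.25, adjusted p = 5.4e-06). Acaca, the carboxylase that commits acetyl-CoA to fatty acids, had 1.20, 1.41, 1.17 and 1.24 TPM in DBA lungs, against 7.98, 6.88, 6.44 and 6.77 TPM in B6 lungs (-1.83 ± 0.15, adjusted p = 1.91e-07). No DBA library came near a B6 library in these genes. Fasn (-1.52), Acly (-1.36), Sc5d (-1.26), Fads2 (-0.98), Insig1 (-0.90) and Fdps (-0.86) were lower too. Tm7sf2 was higher, with 12.3, 9.93, 9.82 and 11.4 TPM in DBA lungs, against 4.42, 4.37, 4.17 and 3.46 TPM in B6 lungs (1.22 ± 0.13). Abca1 (0.36), Ebp (0.32) and Elovl5 (0.24), a fatty acid elongase, were the other genes called higher, and Fads1 was not called (0.09). Alveolar type 2 markers, 6 of 7 called lower, summed to 7168 to 12024 TPM in DBA and 20492 to 31638 TPM in B6, and macrophage markers, 6 of 6 called lower, to 678 to 1099 TPM in DBA and 2606 to 5154 TPM in B6. All 8 proliferation markers were called lower as well, with sums of 62.7 to 91.1 TPM in DBA and 156 to 187 TPM in B6. Their part in these differences was not tested. The groups share no date code and no room-air or hyperoxic lungs link their codes, so genotype and date code cannot be told apart. Under hyperoxia 11 were lower and 7 higher in DBA (22.8% and 23.3% of all genes, 46.1% in either). Acaca had 1.64, 1.71, 1.35 and 1.56 TPM in hyperoxic DBA lungs, against 7.93, 7.72 and 4.40 TPM in hyperoxic B6 lungs (-1.55 ± 0.16). Pmvk (-1.52), Mylip (-1.20), Fasn (-0.81) and Abca1 (-0.73) were lower there, and Dhcr7 (1.06) and Nr1h3 (0.88) higher. The hyperoxic B6 lungs of set 2 were not in this comparison.

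Peaks of p53 lay within 10 kb of the listed start of 8 of the 35 genes over the 10 lists, all in BMDM. The share of all genes over the 10 lists together was not computed. The scores are the authors', and each list pools its replicates, so lists were not compared by a test. The KO hyperoxia list placed a peak near Hmgcs1, where 1.86% of all 24940 genes had one, and the KO room-air list placed none near the 35 (1.48% of all genes). The B6 hyperoxia list placed peaks near Insig1, Fads2, Scd2 and Mylip (4.8% of all genes). The B6 room-air list placed peaks near Sqle, Srebf1, Srebf2 and Mylip (6.38% of all genes). The peak nearest to a start was that of Srebf2 at chr15:82146809-82147009 (mm10, score 22), 260 bases from the start and just upstream of the window shown above. The lung lists, of 134 to 255 peaks, had none within 10 kb.

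Over the 12 BMDM libraries the genes whose log2(TPM + 1) was most correlated with Hmgcs1 were Gnas (Pearson r 0.982), Anxa2 (0.979), Tes (0.975), Ubash3b (0.974) and Ctsl (0.971). For Scd2 they were Lss (0.982), Ctsl (0.980), Sdc1 (0.978), Sqle (0.977) and Cyp51 (0.975). Thus 3 of the 5 nearest to Scd2 were sterol enzymes of the list and 0 of the 5 nearest to Hmgcs1 were. The libraries share genotype and date code, so these values are a description.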

How the data were processed

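RNA was measured in 12 BMDM and 28 lung libraries, and p53 binding in 10 peak lists. The deposited expression tables give TPM for 1 RefSeq transcript per gene symbol, which the authors made with STAR and HOMER on mm10, per the submitters' processing notes (versions not given in the sources used here). Each peak's score is, per the file headers, the tag count of HOMER findPeaks scaled to a common total on combined replicates, and the headers of the KO BMDM lists name a C57 input. KO BMDM immunoprecipitation samples carry the genotype label C57BL/6J and were grouped by title.

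TPM were taken as log2(TPM + 1), and a gene was tested if it reached 1 TPM in at least the number of libraries of the table's smallest group. Linear models with a mean for each group and a variance trend were run per table in limma 3.58.1 (R 4.3.3), and p-values were adjusted by Benjamini-Hochberg over all genes tested in each of 21 comparisons. The code was tested on simulated data. Depth was estimated from whole multiples in TPM times transcript length (at least 99.76% of values within a tolerance of 0.15). TPM are shares of a library, so very abundant transcripts lower all others.

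The 35 genes and all lists were chosen with earlier results of these data known. All 35 could be named. Full values were given for those called, ranked by the size of log2FC, up to 4 per role for KO or DBA against B6 in BMDM and 2 elsewhere, with uncalled genes added as contrasts after their values were seen. Other pathway genes were named up to 3 per list, and some of those counted are not reported by name here. Of the lists of other cell types, those for alveolar macrophages, neutrophils and dendritic cells were counted but are not used in the text. Columns were matched to groups by name. The 7 B6 lung columns are the same in both lung tables. Alternatives were quantile normalization, a pseudocount of 0.1 TPM, no filter, only the groups compared, each library left out, male libraries, single date codes, replicate number as a block and, chosen after seeing the data, date code as a term in lung.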

Additional observations from a re-analysis of the deposited data

Results flagged for a closer look

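In 11 of the 175 checks of a gene in a lung group of 4 libraries, 1 library lay far from the other 3, where chance gives about 1 in 20. In hyperoxic KO lungs these were the lowest Ebp (20.5 TPM) and the highest Acaca (8.40 TPM), and in room-air KO lungs the lowest Scd2 (176.5 TPM). In hyperoxic DBA lungs they were the highest Fads2 (36.4 TPM) and Elovl5 (201.9 TPM). In room-air DBA lungs they were the highest Mvk (11.5 TPM) and Sqle (13.0 TPM) and the lowest Ebp (21.7 TPM), Srebf2 (20.0 TPM) and Elovl5 (165.6 TPM). In room-air B6 lungs it was the lowest Nr1h3 (27.9 TPM).

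The oxygen response differed between genotypes in 38 tests of the difference itself by limma. In BMDM these were Fdps for KO minus B6 (-0.85 on the log2 scale) and Fdps (-0.65) and Msmo1 (-0.51) for DBA minus B6. In lung, for KO minus B6, they were Hmgcs1 (0.42), Mvk (0.75), Pmvk (-1.22), Mvd (0.73), Msmo1 (0.68), Nsdhl (0.67), Dhcr7 (1.08), Acly (0.31), Fads2 (0.71), Elovl5 (-0.61), Stard4 (0.40), Abca1 (-1.10), Nr1h3 (1.39), Mylip (-0.68) and Soat1 (0.93). In lung, for DBA minus B6, they were Hmgcs1 (0.45), Mvk (1.26), Pmvk (-1.04), Mvd (0.62), Tm7sf2 (-1.35), Nsdhl (0.88), Hsd17b7 (0.71), Sc5d (0.87), Dhcr7 (1.13), Acly (0.90), Scd1 (1.42), Scd2 (0.73), Fads2 (1.39), Elovl5 (-0.66), Stard4 (0.89), Abca1 (-1.09), Abcg1 (0.58), Nr1h3 (1.29), Mylip (-0.74) and Soat1 (0.85). The KO and DBA differences share the B6 libraries.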

How the results depend on the processing

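None of the 322 calls of single genes changed direction under an alternative run on it. Of these calls, 297 of 322 held with quantile normalization, 311 of 322 with a pseudocount of 0.1 TPM, 300 of 322 without the filter, 286 of 319 with only the groups compared, 1804 of 2071 with a library left out, 96 of 116 in male libraries 40 of 67 within a single date code, 78 of 103 with date code as a term (chosen after seeing the data) and 174 of 177 with the replicate block. Counts of the 35 genes called moved by more than 1.5 times as follows, and the cause was not tested. With only the groups compared, KO against DBA in hyperoxic BMDM gave 14 (7 with all groups), hyperoxia in B6 BMDM 0 (12), and the BMDM response differences of KO and of DBA from B6 0 each (1 and 2). Over all genes these fits called 3910, 0, 0 and 0 in that order, against 2676, 3515, 179 and 120. A pseudocount of 0.1 TPM gave 0 for both response differences, and 9 over all genes for each. For the DBA difference quantile normalization gave 0 and no filter 1. In set 2, no filter gave 1 (3). Within the earlier date code of the DBA lungs, their hyperoxia comparison gave 5 (19). With date code as a term, KO against B6 in hyperoxic lung gave 8 (20), and 1442 over all genes (5814). With a library left out, the BMDM ranges were 24 to 26 for KO and 29 to 30 for DBA against B6 in room air, 27 to 30 and 32 to 32 in hyperoxia, 8 to 12 for KO against DBA in room air, 4 to 6 in hyperoxia, 5 to 7 for hyperoxia in KO, 3 to 5 in DBA and 7 to 13 in B6, and 0 to 2 and 0 to 1 for the response differences of KO and DBA. In lung they were 14 to 19 for hyperoxia in DBA and 0 to 2 in set 2. Genes with a p53 peak numbered 1 within 1 kb, 19 within 50 kb and 5 with upper-half scores (8 within 10 kb). These counts join all lists, and the joint share of all genes was not computed. In single BMDM lists 0.0922% to 1.57% of all genes had a peak within 1 kb and 6.61% to 23.2% within 50 kb. With upper-half scores it was 1.23% to 4.41%. Same-numbered BMDM libraries share only a number in DBA and KO (correlations of deviations 0.079 and -0.051), as in set 2 (0.047 and 0.0083). B6 BMDM columns all carry number 1, so the block took the MF and F marks in their place, whose libraries deviated together (0.38). With this replicate block, KO against DBA gave 17 in room air and 15 in hyperoxia (6 higher and 9 lower), the KO response difference 5, all lower, hyperoxia in B6 15, and set 2 2. No paired analysis was possible by number in the other lungs because replicate numbers restart within date codes. The thinnest of the 35 genes had 21.98 to 225 estimated reads in BMDM and 12 to 19 in set 2, which limits small changes of low genes there.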
